A study of Macaca mulatta with 102 samples.

Results

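Expression of 7 genes that regulate or mark type 2 helper T cells (Th2 cells) was followed in CD3-positive T cells of rhesus macaques after hematopoietic cell transplantation. The genes were the transcription factors GATA3, GFI1 and NFIL3, the IL-4 receptor chain IL4R with its signal transducer STAT6, and the surface receptors PTGDR2 and IL1RL1. They were chosen by name, as the probe sets that the platform annotation pairs with 1 of these genes and no other. All 7 had such probe sets, 15 in all, out of 14133 genes and 24969 probe sets with a single gene. All 7 passed the filter on low values with at least the probe set of highest mean signal, which stands for the gene below.

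Th2 cells are helper T cells that arise when IL-4 binds its receptor, STAT6 is phosphorylated and GATA3 is induced. GATA3 opens the cytokine locus of IL-4, IL-5 and IL-13 and holds back the Th1 programme of T-bet (TBX21), while GFI1 favours the growth of GATA3-high cells and NFIL3 modulates Th2 cytokine production. PTGDR2 (CRTH2), the receptor of prostaglandin D2, and IL1RL1 (ST2), the receptor of IL-33, are displayed by Th2 cells, and IL1RL1 also by a subset of regulatory T cells. None of these genes is used by Th2 cells alone: NFIL3 and GFI1 also act in myeloid and NK cells, and IL4R and STAT6 are present in most lymphocytes.

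T cells were sorted from blood by flow cytometry and their RNA was measured on Affymetrix rhesus arrays, which gave log2 signals for 102 arrays of 66 animals in 16 groups. The comparisons ask how prophylaxis against graft-versus-host disease, among it the OX40 ligand antibody KY1005, changes the transcriptome of T cells after transplant. All 12 allogeneic groups received cells of a donor. NoRx.F had 4 arrays of recipients without prophylaxis, taken 6 to 12 days after transplant, and Siro.F had 4 of recipients under sirolimus, an mTOR inhibitor, at days 12 to 24. For tacrolimus combined with methotrexate there were 3 arrays of day 14 (Tac.Mtx.D14) and 3 of days 26 to 67 (Tac.Mtx.F). For belatacept, which blocks CD28 costimulation, combined with sirolimus there were 3 arrays of day 14 (Bela.Siro.D14), 2 of day 30 (Bela.Siro.D30) and 7 of days 26 to 105 (Bela.Siro.F). KY1005 without another agent was represented by 2 arrays of days 14 to 16 (KY1005.D14) and 3 of days 16 to 23 (KY1005.F). Its combination with sirolimus was sampled in 5 animals at day 14 (KY1005.Siro.D14), in the same 5 at day 28 (KY1005.Siro.D28) and in 4 of them at days 97 to 106 (KY1005.Siro.F). Recipients of an autologous transplant, given back cells of their own, were sampled in 3 animals at day 14 (Auto.D14), 4 at days 30 to 36 (Auto.D36) and 4 at day 100 (Auto.D100). Healthy.Control comprised 46 arrays of 45 animals without a transplant, and the 2 arrays of healthy animal R.201 were averaged. The labels do not say what the ending F stands for. Animals recur between time points of a regimen, and 11 healthy animals were measured again after transplant.

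Array medians ran from 5.13 to 5.35, and the number of arrays limits the precision. Of 10 T cell markers, 4 had a single-gene probe set. Healthy means were 12.5 for ZAP70, 10.8 for CD5, 10.7 for LAT and 7.56 for CD6. Some genes listed for other cells also had high healthy means, among them NCAM1 (10.1) and TYROBP (9.84) for NK cells and PF4 (10.4) for platelets. CD79B, the highest of the B cell genes, had 7.04. How pure the sorted cells were was not tested. In 6 arrays the actin control probe sets at the 3' end exceeded those at the 5' end by more than 2.5 log2 units (the actin ratio), which is a measure of RNA degradation. These high-actin arrays were those of R.201 and R.202 in Auto.D14 and of R.32, R.22, R.207 and R.208 in healthy controls. All KY1005 groups were run in batch 6, whose 7 healthy arrays include R.207 and R.208. Calls of the 7 genes in the KY1005 groups and in Auto.D14 are therefore given with and without these arrays, which leaves 1 array in Auto.D14, assumed to vary like the other groups. With batch as a factor in the fit, differences of the KY1005 groups from healthy controls are against the 7 healthy arrays of batch 6. The Bela.Siro and Tac.Mtx groups were all run in batch 3, and their differences are against its 13 healthy arrays. Healthy ranges, medians and means below cover all batches unless a batch is named. In bulk RNA, fewer cells of a type and less RNA per cell cannot be told apart.

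Across the 15 comparisons with healthy controls, 17 of 105 pairs of gene and comparison passed the test (limma, Benjamini-Hochberg over all 31710 probe sets kept, threshold 0.05), 10 higher and 7 lower. This was 16.2% of the pairs, against 8.2% over all probe sets in the same comparisons, of which 4.18% were higher and 4.02% lower. NFIL3 held 8 of the 10 higher calls and GFI1 held 4 of the 7 lower calls. The remaining higher calls were of IL1RL1, and the remaining lower calls were of STAT6 and IL4R. GATA3 and PTGDR2 had 0 calls in 15 comparisons each, with 2 comparisons each at an unadjusted p under 0.05. Without the 6 high-actin arrays the count was 9, and the 8 calls lost were all in KY1005 groups.

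Of the 7 genes, 3 were called in NoRx.F, where 27.5% of all probe sets were called. In Siro.F 1 was called beside 8.91% of probe sets, in Tac.Mtx.D14 0 beside 0.88%, and in Tac.Mtx.F 0 beside 14.3%. Bela.Siro.D14 had 1 beside 2.68%, Bela.Siro.D30 had 1 beside 1.14%, and Bela.Siro.F had 2 beside 10%. KY1005.D14 had 0 beside 0.202%, and KY1005.F had 1 beside 3.28%. KY1005.Siro.D14 had 2 beside 4.15%, KY1005.Siro.D28 had 4 beside 12.1%, and KY1005.Siro.F had 2 beside 6.84%. The autologous groups had 0 calls each, beside 19.4% in Auto.D14, 9.26% in Auto.D36 and 2.48% in Auto.D100.

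**Figure D1:**
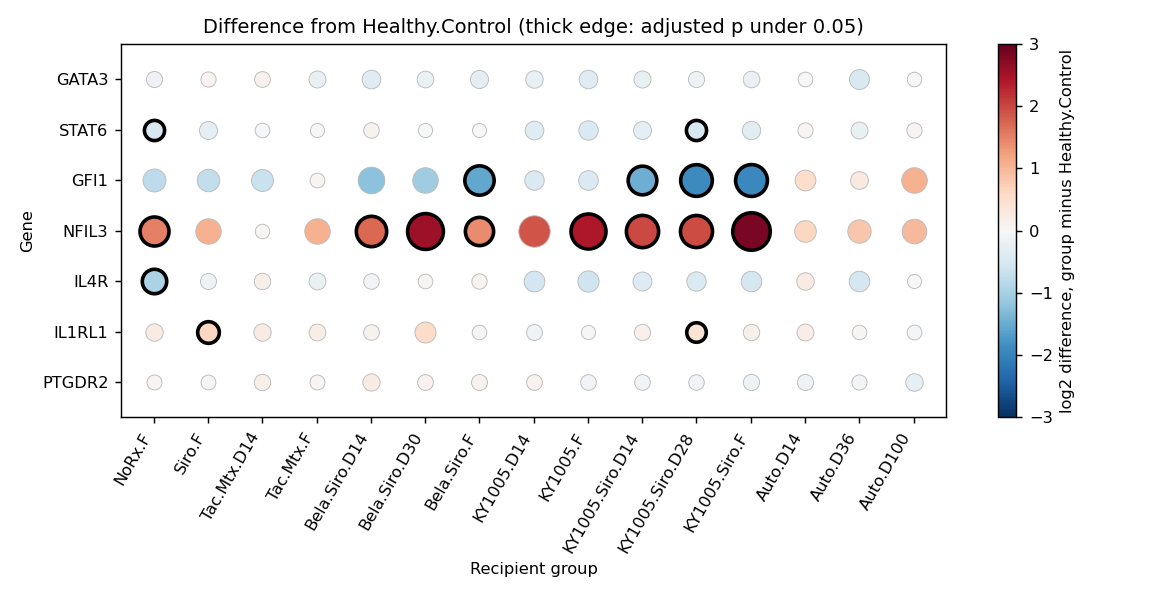
Log2 difference from healthy controls (colour and size of each point) for the 7 genes, by their probe set of highest mean, in the 15 recipient groups, with a black edge where the adjusted p was under 0.05. NFIL3 was positive in all 15 groups and GFI1 was lowest in the KY1005.Siro and Bela.Siro.F groups.

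GATA3, the factor that defines the Th2 lineage, had a high and narrow signal. It ran from 10.03 in the lowest to 11.40 in the highest healthy array, with a median of 10.84 and a mean of 10.8 ± 0.29 (SD, n = 45). The means of the recipient groups lay between 10.30 in Auto.D36 and 10.95 in Tac.Mtx.D14, inside the range of single healthy arrays. In Auto.D36 the arrays read 10.69, 9.88, 10.31 and 10.30, which overlapped the healthy arrays except for R.200 at 9.88. Its difference of -0.47 ± 0.18 (SE) was the farthest from 0 and did not pass the test (limma adjusted p = 0.0896). The Siro.F arrays were spread most widely, at 10.95, 10.81, 11.92 and 10.03. Of these, R.17 at 11.92 lay above and R.16 at 10.03 at the bottom edge of the healthy range.

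The second probe set of GATA3, MmugDNA.22186.1.S1_at, followed the first over the 101 arrays with r = 0.77. It read 7.59, 7.87, 7.80, 7.70 and 7.53 in KY1005.Siro.D28, against a healthy range of 7.49 to 9.12 with a median of 8.24. These arrays lay in the low part of the healthy range and overlapped it, with a difference of -0.63 ± 0.19 (limma adjusted p = 0.0174). KY1005.Siro.F read 8.34, 7.16, 7.24 and 8.03 on it, a difference of -0.64 ± 0.20 (limma adjusted p = 0.0372), with R.219 and R.220 below every healthy array. Without the high-actin arrays neither passed, at -0.45 in both KY1005.Siro.D28 (adjusted p = 0.261) and KY1005.Siro.F (0.361). On the first probe set neither difference passed the test. In 18 arrays from 11 animals that also had a healthy array, GATA3 was lower than in the animal's own healthy array in 14 and higher in 4, with a median difference of -0.25. Of these pairs, 10 were run in the same batch.

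NFIL3, a basic leucine zipper repressor also known as E4BP4, had the most calls and the largest differences from healthy controls of the 7 genes. Its mean signal was lowest in healthy controls of all 16 groups, at 7.76 ± 0.80 (SD, n = 45), and its difference from them was positive in all 15 recipient groups. It passed the test in 8: NoRx.F, all 3 Bela.Siro groups, KY1005.F and all 3 KY1005.Siro groups. Fitted differences of these 8 ran from 1.42 in Bela.Siro.F, a fold of 2.67, to 2.85 in KY1005.Siro.F, a fold of 7.21. For the Bela.Siro groups they were against the healthy arrays of batch 3 (mean 7.78, n = 13). For the KY1005 groups they were against those of batch 6 (mean 7.45, n = 7).

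KY1005.Siro.F arrays read 8.72, 12.28, 10.33 and 9.90 for NFIL3, against a healthy lowest, median and highest of 5.22, 7.77 and 9.10. The array of R.219 at 12.28 was the highest of all 101, and that of R.217 at 8.72 overlapped the healthy arrays. The difference was 2.85 ± 0.47 (SE; limma adjusted p = 1.29e-05), and 2.22 without the high-actin arrays (adjusted p = 0.00166).

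At the earlier times of this regimen the NFIL3 arrays were closer together. KY1005.Siro.D14 read 10.07, 9.50, 8.99, 9.11 and 9.54, and KY1005.Siro.D28 read 9.68, 9.66, 9.02, 8.85 and 9.88. In D14 only R.219 and in D28 R.219 and R.220 fell inside the healthy range. The differences were 1.99 ± 0.44 (limma adjusted p = 0.0033) and 1.96 ± 0.44 (adjusted p = 0.0015). With the high-actin arrays left out, they were 1.36 (adjusted p = 0.0704) and 1.33 (adjusted p = 0.0941), past the test in neither. Within batch 6 alone the estimates were the same, with adjusted p = 0.0594 for D14 and 0.0388 for D28.

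Under KY1005 alone, NFIL3 read 10.85, 9.68 and 9.12 in KY1005.F, above every healthy array. The difference was 2.43 ± 0.51 (limma adjusted p = 0.0041). It was 1.80 without the high-actin arrays (adjusted p = 0.0851) and 1.94 without R.211, the highest array (adjusted p = 0.162). Within batch 6 its adjusted p was 0.0691. In KY1005.D14 the arrays read 9.003 and 9.66, and the difference of 1.88 ± 0.60 did not pass the test (adjusted p = 0.147).

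The healthy arrays of batch 6 differed among themselves. NFIL3 read 5.22 in R.208 and 6.53 in R.207, both high-actin arrays, and 7.53, 7.79, 7.97, 8.44 and 8.71 in the other 5. Their mean was 7.45 over all 7 and 8.09 ± 0.48 (SD, n = 5) without those arrays. NFIL3 had r = -0.21 with the actin ratio over all 101 arrays, -0.33 over the 45 healthy arrays and 0.05 over the 95 arrays without the 6. The part of RNA degradation in these results was not tested further.

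In the belatacept and sirolimus groups, which share no batch with KY1005, NFIL3 was highest in Bela.Siro.D30 at 10.37 and 10.30, above every healthy array. The difference was 2.56 ± 0.57 (limma adjusted p = 0.0052). Leaving out either array leaves a single one, whose spread is then taken from the other groups. The difference stayed at 2.53 without R.38 and 2.60 without R.42, and neither passed (adjusted p = 0.1005 and 0.184). Bela.Siro.D14 read 9.99, 9.84 and 8.63, a difference of 1.71 ± 0.48 (limma adjusted p = 0.0323). That call ended without R.38 (1.46, adjusted p = 0.164) and without R.42 (1.54, adjusted p = 0.246). In Bela.Siro.F the lowest, median and highest of the 7 arrays were 7.76, 9.10 and 10.33, and the groups overlapped (1.42 ± 0.35, limma adjusted p = 0.0037).

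Recipients without prophylaxis had NFIL3 signals of 9.12, 9.63, 8.61 and 9.93, of which only R.51 at 8.61 fell inside the healthy range. The difference was 1.52 ± 0.44 (limma adjusted p = 0.0053) and lay between 1.33 and 1.74 with each NoRx.F array left out. In Siro.F the arrays read 9.14, 9.25, 8.73 and 8.47, a difference of 1.07 ± 0.42 that did not pass the test (adjusted p = 0.10). Tac.Mtx.F read 8.48, 9.11 and 8.94 (1.07 ± 0.48, adjusted p = 0.124), while Tac.Mtx.D14 read 7.95, 8.03 and 7.46, close to the healthy median (0.04 ± 0.48).

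Autologous recipients had NFIL3 signals of 8.13, 8.65 and 9.10 at day 14, 8.58, 8.26, 8.60 and 9.02 at days 30 to 36, and 8.31, 9.11, 9.07 and 9.23 at day 100. The healthy highest was 9.10, so all 3 groups overlapped the healthy arrays, and differences of 0.64, 0.83 and 0.97 did not pass the test. In order of mean, the groups ran from Bela.Siro.D30 and KY1005.Siro.F at 10.3 each, through KY1005.F at 9.88, to Tac.Mtx.D14 at 7.81 and healthy controls at 7.76. From Bela.Siro.D30 down to Auto.D36 at 8.61 neighbours in this order differed by less than the spread of their arrays, and a wider step led to Tac.Mtx.D14. No pair of regimens differed past the test. The nearest was KY1005.Siro.F against Auto.D100, at 1.88 ± 0.65 (limma adjusted p = 0.0607).

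**Figure D2:**
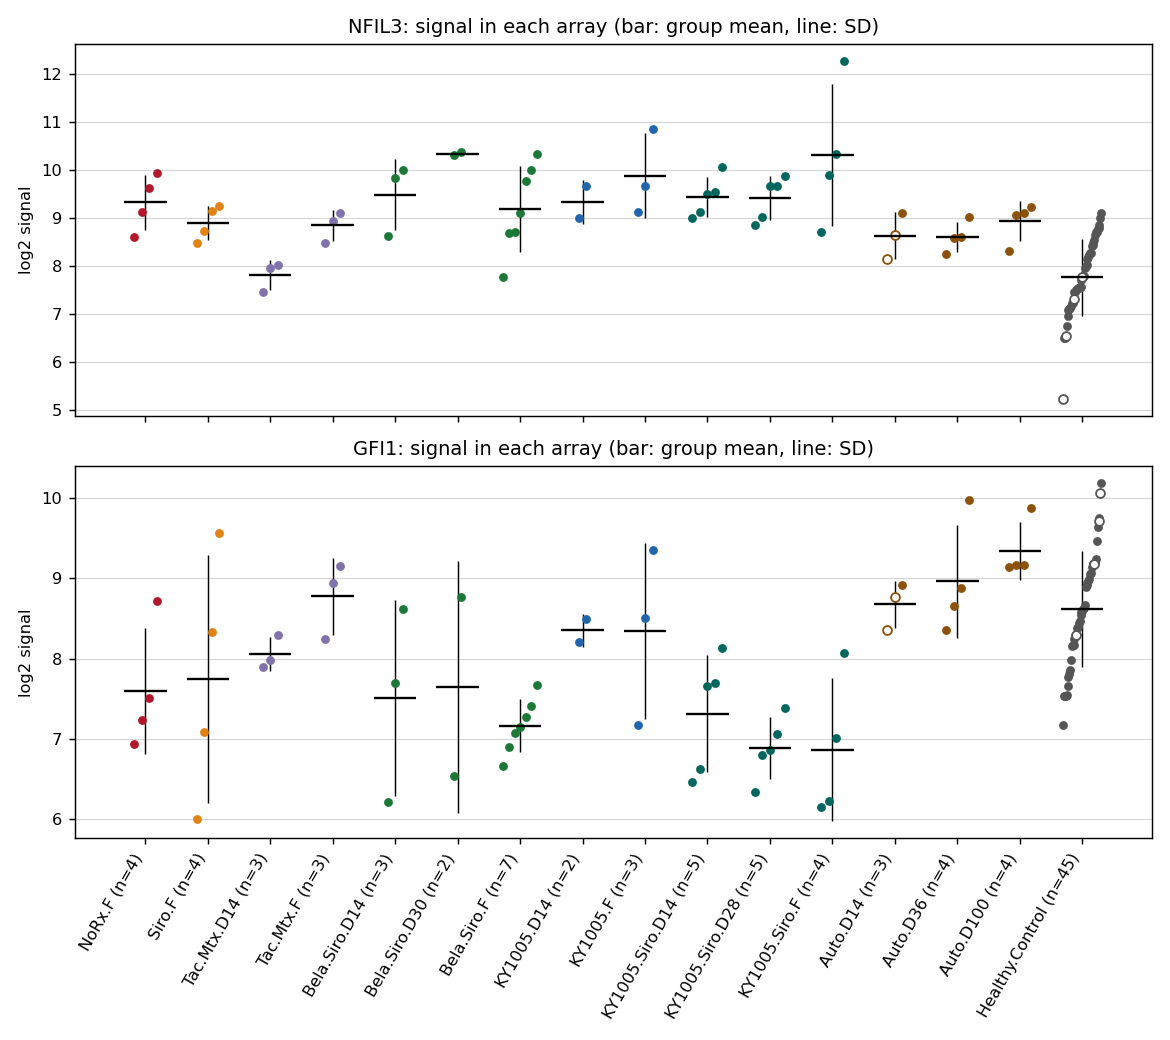
Log2 signal of NFIL3 and of GFI1 in each array by group, with the mean (bar) and SD (line), and open circles for the 6 arrays with a log2 actin ratio above 2.5. For NFIL3 the arrays of Bela.Siro.D30 and KY1005.F lie above the highest healthy array (9.10), and for GFI1 the arrays of KY1005.Siro.D28 and KY1005.Siro.F lie below those of Auto.D36 and Auto.D100.

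Monocyte and granulocyte genes moved with NFIL3 in some of the groups. Of the 12 measured genes of that list, 10 were higher in KY1005.Siro.F, 5 in Bela.Siro.F, 3 each in NoRx.F, Bela.Siro.D14, KY1005.F and KY1005.Siro.D14, and 0 in Bela.Siro.D30 and KY1005.Siro.D28. In Tac.Mtx.F and Auto.D36, where NFIL3 was not called, 2 each were higher. None was lower in any of the 15 comparisons, where 17.2% of the list's tests passed, against 8.2% of all probe sets. The healthy means of MMP8 (3.42), S100A12 (3.50), MMP9 (4.89) and CSF3R (5.04) lay below the median of all values, which the filter used. Among genes this low the filter favours those that are high in some group, and the background of the array leaves little room for a lower call. S100A8 and S100A9, the calprotectin subunits of neutrophils and monocytes, differed by 4.04 ± 1.03 and 4.41 ± 1.06 in KY1005.Siro.F, by 4.59 ± 0.77 and 5.01 ± 0.79 in Bela.Siro.F and by 4.48 ± 0.97 and 4.73 ± 1.00 in NoRx.F. All 12 genes had a group mean at or above the median of all values in KY1005.Siro.F, against 8 in healthy controls. Without the high-actin arrays 9 of the 10 genes passed in KY1005.Siro.F, and 1 of 3 each in KY1005.F and KY1005.Siro.D14.

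The mean of the list relative to healthy controls ran from -0.69 to 5.58 over the KY1005.Siro.F arrays, from 0.62 to 3.32 in Bela.Siro.F and from -0.999 to 1.34 in healthy controls. NFIL3 followed it with r = 0.65 over 101 arrays, 0.62 over 56 recipient arrays and 0.18 over 45 healthy arrays, all from the same hybridizations. With this score as a covariate, NFIL3 passed the test in 5 of the 8 comparisons: 2.14 in Bela.Siro.D30 (limma adjusted p = 0.0141), 1.73 in KY1005.F (0.030), 1.40 in KY1005.Siro.D14 (0.0469), 1.74 in KY1005.Siro.D28 (0.00156) and 1.78 in KY1005.Siro.F (0.0306). It no longer passed in NoRx.F (1.00, adjusted p = 0.0575), Bela.Siro.D14 (1.00, 0.286) and Bela.Siro.F (0.72, 0.272). The genes most like NFIL3 across the 101 arrays were SYTL4 (r = 0.75), CEBPB (r = 0.74), a myeloid and inflammatory transcription factor, and GAPDH (r = 0.72), the glycolytic enzyme.

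**Figure D3:**
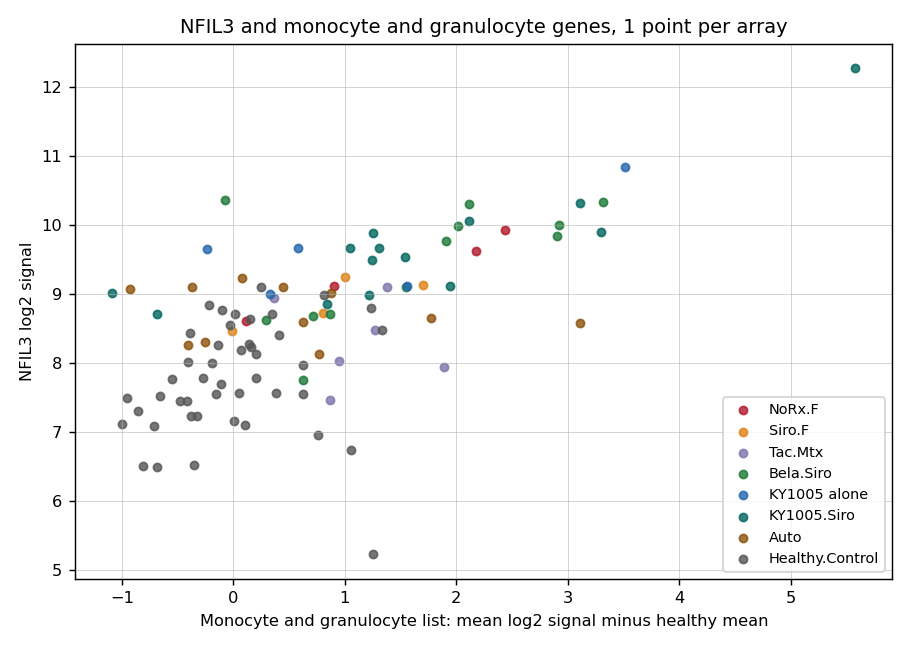
Log2 signal of NFIL3 (vertical) against the mean log2 signal of 12 monocyte and granulocyte genes minus its healthy mean (horizontal), 1 point per array, coloured by regimen. The array of R.219 at 5.58 and 12.28 lies at the top right, while 1 Bela.Siro.D30 array lies at -0.08 and 10.37.

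In animals with a healthy array of their own, NFIL3 was higher after transplant in 13 of 18 arrays and lower in 5. The median difference was 0.58, with a range of -0.52 to 2.62. The 3 largest were R.53 in NoRx.F (2.62), R.49 in Bela.Siro.F (2.53) and R.18 in Siro.F (2.12).

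GFI1, a zinc finger repressor that in mouse T cells is induced by IL-4 signalling, passed the test as lower than in healthy controls in 4 groups. All of them were given sirolimus with a second agent. These were Bela.Siro.F and the 3 KY1005.Siro groups. The healthy lowest, median and highest over all batches were 7.17, 8.59 and 10.19, with a mean of 8.62 ± 0.72 (SD, n = 45). The fitted differences of the 4 groups were against the healthy arrays of their own batch. Those had a mean of 8.73 in batch 3 (n = 13) for Bela.Siro.F and 8.79 in batch 6 (n = 7) for the KY1005.Siro groups.

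The 7 Bela.Siro.F arrays read 6.67 at the lowest, 7.15 at the median and 7.67 at the highest for GFI1, all in or below the lowest part of the healthy range. The difference was -1.57 ± 0.35, a 2.96-fold lower signal (limma adjusted p = 0.0011), and it passed the test in all 14 alternative settings. At day 14 of the same regimen the arrays read 8.62, 6.21 and 7.70, and at day 30 they read 8.76 and 6.54. Those groups were spread across more than 2 log2 units, and neither passed the test.

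Under KY1005 with sirolimus GFI1 read 7.65, 7.70, 6.46, 6.62 and 8.13 at day 14, 7.06, 6.86, 7.39, 6.33 and 6.80 at day 28, and 8.07, 6.15, 6.22 and 7.01 in KY1005.Siro.F. The day 28 arrays were the most uniform, with 1 of 5 inside the healthy range. Differences from healthy controls were -1.48 ± 0.43 (limma adjusted p = 0.0343), -1.90 ± 0.43 (0.0020) and -1.93 ± 0.47 (0.0047). With the high-actin arrays left out, they were -1.04 (adjusted p = 0.207), -1.46 (0.0771) and -1.49 (0.0990), and none passed the test. In batch 6 those arrays, R.207 at 10.07 and R.208 at 9.71, were the highest of the 7 healthy arrays for GFI1. The other 5 read 8.62, 8.59, 8.54, 8.46 and 7.53, with a mean of 8.35 ± 0.46 (SD, n = 5).

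The day 14 call of GFI1 also ended without R.217 (-1.56, limma adjusted p = 0.0536), R.219 (-1.26, 0.136) or R.220 (-1.30, 0.0909), and with the monocyte and granulocyte score as a covariate (-1.23, 0.123). That of KY1005.Siro.F ended without R.219 (-1.69, 0.0665) and with the score as a covariate (-1.48, 0.0928).

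Against autologous recipients of about the same time, GFI1 was lower under KY1005 with sirolimus late after transplant. KY1005.Siro.F read 8.07, 6.15, 6.22 and 7.01, against 9.17, 9.88, 9.17 and 9.14 in Auto.D100, and the groups did not overlap. The difference was -3.01 ± 0.65, an 8.03-fold lower signal (limma adjusted p = 0.00288). It was -2.58 without the high-actin arrays (adjusted p = 0.0174). When only these groups were fitted it was -2.31, but the batch term then left R.60 as the only Auto.D100 array compared. That fit therefore does not test the groups against each other. Auto.D100 itself stood 1.08 ± 0.46 above healthy controls, which did not pass the test (adjusted p = 0.20).

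At the earlier matched times, KY1005.Siro.D28 read 6.33 to 7.39 for GFI1 against 8.36, 9.98, 8.87 and 8.66 in Auto.D36, again without overlap. The difference was -2.18 ± 0.61 (limma adjusted p = 0.0188). It was -1.70 without the high-actin arrays (adjusted p = 0.126) and -1.87 without the Auto.D36 array of R.200 (0.0778). With only these groups fitted it was -1.47, but the batch term then left R.62 as the only Auto.D36 array compared. KY1005.Siro.D14 read 6.46 to 8.13 against 8.35, 8.77 and 8.91 in Auto.D14, and this difference of -2.03 ± 0.70 missed the threshold (adjusted p = 0.0515). These regimens lie in different batches and are linked through the healthy arrays.

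GFI1 did not pass the test elsewhere. NoRx.F read 8.72, 7.51, 6.93 and 7.23, Siro.F read 7.09, 8.34, 5.99 and 9.56, and KY1005.F read 9.36, 8.50 and 7.18, all overlapping the healthy range. Without a batch term, however, NoRx.F was lower than healthy controls past the test (-1.02, limma adjusted p = 0.0309). KY1005.D14 read 8.21 and 8.50, Tac.Mtx.D14 8.29, 7.98 and 7.89, and Tac.Mtx.F 8.24, 8.94 and 9.16. Siro.F spanned the range from the lowest recipient array, R.17 at 5.99, to R.16 at 9.56.

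The gene most like GFI1 over the 101 arrays was TBX21 (r = 0.88), which encodes T-bet, the Th1 master regulator, followed by CLIC5 and PRR5L (r = 0.87 each). TBX21 was also lower in Bela.Siro.F (-1.54 ± 0.36, limma adjusted p = 0.0019) and KY1005.Siro.F (-1.83 ± 0.48, adjusted p = 0.010), where it was -1.73 and did not pass without the high-actin arrays (0.0545). GFI1 followed the mean of 5 NK cell genes with r = 0.63 over 101 arrays, 0.59 over 45 healthy and 0.61 over 56 recipient arrays. KLRF1, an NK cell receptor, was the 1 gene of that list that was lower in Bela.Siro.F, and 0 of 5 passed in the KY1005.Siro groups. The part of NK cells or cytotoxic T cells in the GFI1 differences was not tested.

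IL4R, the chain that binds IL-4 and IL-13, was lower without prophylaxis. NoRx.F read 8.13, 6.80, 7.34 and 7.35, against a healthy lowest, median and highest of 7.70, 8.28 and 9.66. Only R.53 at 8.13 fell inside the healthy range. The difference was -0.95 ± 0.23, a 1.93-fold lower signal (limma adjusted p = 0.000909), and -0.81 with the actin ratio as a covariate (adjusted p = 0.0013).

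Bela.Siro.F read 8.04 at the lowest, 8.50 at the median and 8.98 at the highest for IL4R, above NoRx.F with an overlap of only R.53. The difference of Bela.Siro.F from NoRx.F was 1.04 ± 0.30 (limma adjusted p = 0.00987) and passed in all 13 alternative settings, but not without the NoRx.F array of R.50 (0.86, adjusted p = 0.0583). In 1 of those settings only these groups were fitted, and its batch term left the array of R.53 out of the comparison. That setting therefore does not test all of NoRx.F. The groups share no batch and were sampled on days 26 to 105 in Bela.Siro.F and days 6 to 12 in NoRx.F. NoRx.F was also lower than Auto.D14, which read 9.09, 8.71 and 7.73, by -1.21 ± 0.37 (limma adjusted p = 0.0315). The first 2 of those are high-actin arrays. Without them, against the 1 array left, the difference was -0.43 (adjusted p = 0.850), and with the ratio as a covariate it was -0.54 (0.514). Without the high-actin arrays Siro.F (0.80, limma adjusted p = 0.0193) and KY1005.Siro.D14 (0.92, 0.0173) also exceeded NoRx.F past the test, which they did not with them (0.0719 and 0.257). IL4R had r = 0.53 with the actin ratio over 101 arrays and 0.28 over the 95 without the 6.

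The second probe set of IL4R (Mmu.11700.1.S1_at) ran the other way, with r = -0.50 against the first over 101 arrays and r = -0.52 with the actin ratio. On it NoRx.F read 6.20, 6.06, 6.51 and 5.97, against a healthy lowest, median and highest of 4.44, 5.79 and 6.59. All NoRx.F arrays were above the healthy median and inside the healthy range. Auto.D14 read 4.68, 5.00 and 6.07, lower than healthy controls by -0.89 ± 0.33 (limma adjusted p = 0.046). NoRx.F against Auto.D14 was 1.34 ± 0.42 on this probe set (adjusted p = 0.035), opposite in sign to the first. The later autologous groups read 5.08, 6.60, 6.96 and 6.80 in Auto.D36 and 6.01, 6.25, 6.31 and 6.33 in Auto.D100. They exceeded Auto.D14 by 1.38 ± 0.42 (limma adjusted p = 0.0289) and 1.08 ± 0.35 (0.0396). The Auto.D14 values 4.68 and 5.00 are of the high-actin arrays of R.201 and R.202. Without them Auto.D14 differed from healthy controls by -0.06 (adjusted p = 0.984), NoRx.F from Auto.D14 by 0.51 (0.862), and Auto.D36 and Auto.D100 from Auto.D14 by 0.47 and 0.25 (1.00 each).

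KY1005.Siro.D28 was higher than healthy controls on the second IL4R probe set, at 6.72, 6.72, 6.07, 5.98 and 6.74 (0.83 ± 0.26, limma adjusted p = 0.025). Without the high-actin arrays this was 0.55 and did not pass (adjusted p = 0.327). On the mean of both probe sets, NoRx.F against healthy controls was -0.25 (adjusted p = 0.142), and NoRx.F against Auto.D14 was 0.07 (0.890), with the sign turned. The genes most like IL4R on its first probe set were EGFL8 (r = 0.70), SYNPR (r = 0.68) and FAM219B (r = 0.66). For IL4R, therefore, the direction depends on the probe set, and which of them follows the transcript was not tested.

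**Figure D4:**
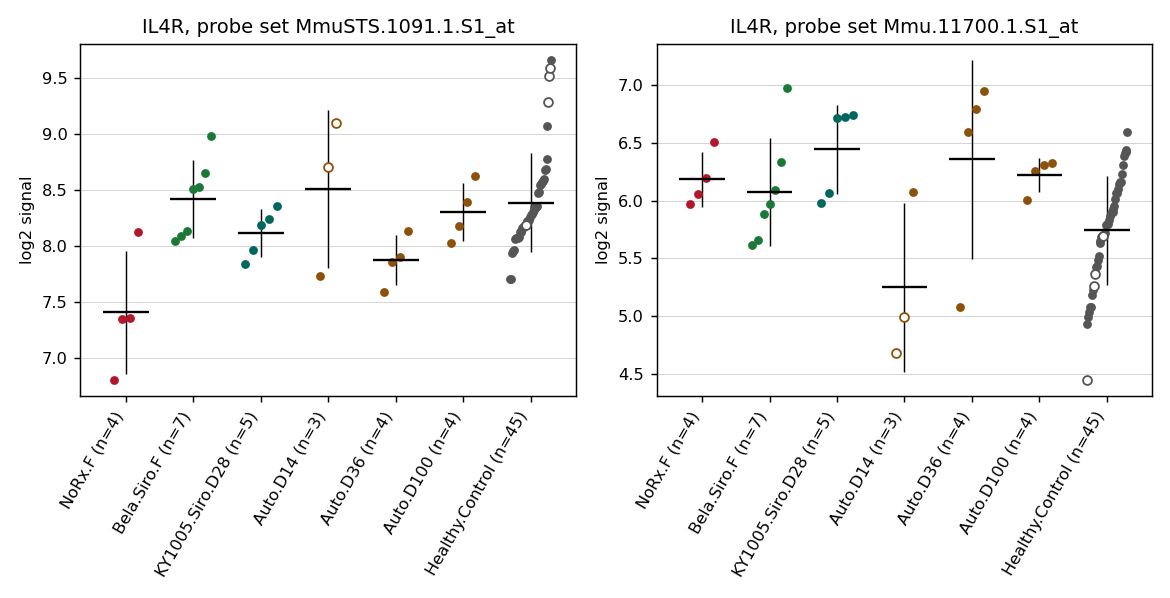
Log2 signal of both IL4R probe sets in each array of 7 groups, with the mean (bar) and SD (line), and open circles for arrays with a log2 actin ratio above 2.5. On the left probe set the NoRx.F arrays other than that of R.53 (8.13) are the lowest. The high-actin Auto.D14 arrays are high on the left (9.09 and 8.71) and low on the right (4.68 and 5.00).

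STAT6, which carries the IL-4 signal to the nucleus, was lower in NoRx.F and KY1005.Siro.D28. NoRx.F read 9.62, 9.70, 9.38 and 9.38, against a healthy lowest, median and highest of 9.67, 9.99 and 10.71, so that only R.50 fell inside the healthy range. The difference was -0.50 ± 0.14, a 1.41-fold lower signal (limma adjusted p = 0.0055). Averaged over the 3 STAT6 probe sets it was -0.19 and did not pass (adjusted p = 0.218).

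KY1005.Siro.D28 read 9.61, 9.89, 9.73, 9.49 and 9.45 for STAT6, with 2 of 5 arrays inside the healthy range. Its difference was also -0.50 ± 0.14 (limma adjusted p = 0.0143). The call ended in 5 of 14 alternative settings, among them without the high-actin arrays (-0.27, adjusted p = 0.409), and without R.221 (-0.45, 0.0626). STAT6 had r = 0.47 with the actin ratio over 101 arrays and 0.30 over the 95. Bela.Siro.F against NoRx.F was 0.50 ± 0.18, which missed the threshold (adjusted p = 0.0575), and 0.49 without the high-actin arrays (0.0376).

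The other STAT6 probe sets had r = 0.17 and 0.03 with the first. On MmugDNA.3509.1.S1_s_at, Auto.D14 read 5.59, 5.67 and 6.85, against 5.75, 6.62 and 7.01 for the healthy lowest, median and highest, a difference of -0.79 ± 0.23 (limma adjusted p = 0.012). Its later groups read 6.83, 7.14, 6.99 and 7.02 in Auto.D36 and 6.97, 7.30, 6.99 and 7.05 in Auto.D100. They exceeded Auto.D14 by 1.20 ± 0.29 (adjusted p = 0.0066, with 7.06% of all probe sets called) and 1.13 ± 0.24 (adjusted p = 0.0047, with 7.35% called). The values 5.59 and 5.67 are of high-actin arrays. Without them Auto.D14 differed from healthy controls by 0.01 (adjusted p = 0.997), and Auto.D36 and Auto.D100 from Auto.D14 by 0.26 and 0.30 (1.00 each). Over 101 arrays this probe set had r = -0.65 with the actin ratio. On MmugDNA.3509.1.S1_at the 1 call was KY1005.Siro.D14 against NoRx.F (-0.56 ± 0.20, adjusted p = 0.042), where 15.6% of all probe sets were called. It read 7.60, 7.02, 6.74, 7.16 and 6.62 in KY1005.Siro.D14, against 6.95, 7.63, 7.90 and 7.96 in NoRx.F. The groups overlapped, since R.53 of NoRx.F lay below 3 of the 5 KY1005.Siro.D14 arrays, and without the high-actin arrays the difference was -0.50 (adjusted p = 0.0910). The genes most like STAT6 were FAM193A, PPP1R12C (r = 0.75 each) and PTPN23 (r = 0.74).

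IL1RL1, the IL-33 receptor, had low signals that were higher in Siro.F on all its probe sets and in 4 other groups on 1 or 2 of them. Siro.F read 6.10, 6.06, 6.75 and 5.86, against a healthy lowest, median and highest of 5.07, 5.51 and 6.02. Of the 4 arrays only R.16 at 5.86 fell inside the healthy range. The difference was 0.64 ± 0.12, a 1.56-fold higher signal (limma adjusted p = 0.000114). It passed the test in all 13 alternative settings and with each Siro.F array left out, between 0.47 and 0.76.

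All 4 probe sets of IL1RL1 were higher in Siro.F than in healthy controls past the test. The largest difference was on MmugDNA.3490.1.S1_at, with 6.43, 7.30, 5.95 and 5.16 in Siro.F against a healthy range of 4.79 to 5.57 (1.11 ± 0.17, limma adjusted p = 4.53e-06). The others gave 0.46 ± 0.12 on MmugDNA.32633.1.S1_at (adjusted p = 0.0065) and 0.39 ± 0.12 on MmugDNA.37692.1.S1_at (0.0217). R.16 was the lowest Siro.F array on all 4, and R.17 or R.18 the highest. Siro.F also exceeded NoRx.F on MmugDNA.3490.1.S1_at (0.79 ± 0.22, adjusted p = 0.0176, with 6.46% of all probe sets called). In 3 more groups 1 of the 4 probe sets passed against healthy controls, and not the first. Tac.Mtx.D14 read 5.63, 6.34 and 5.47 on MmugDNA.3490.1.S1_at (0.75 ± 0.20, limma adjusted p = 0.0387), with 2 of 3 arrays above the healthy range. On MmugDNA.37692.1.S1_at Tac.Mtx.F read 5.61, 5.57 and 5.44 (0.38 ± 0.13, adjusted p = 0.0404) and Bela.Siro.D14 read 5.45, 5.80 and 5.59 (0.45 ± 0.13, 0.0429), against a healthy range of 4.67 to 5.67, so that both groups overlapped it. Correlations of the other probe sets with the first were 0.40 to 0.53 over 101 arrays. MmugDNA.37692.1.S1_at was at or above the median of all values in 67 arrays, MmugDNA.3490.1.S1_at in 53 and MmugDNA.32633.1.S1_at in 26. The background of the array therefore limits what their differences show.

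IL1RL1 was lower in Bela.Siro.F than in Siro.F. The 7 Bela.Siro.F arrays read 5.35 at the lowest, 5.48 at the median and 5.73 at the highest, all below the lowest Siro.F array at 5.86. The difference was -0.60 ± 0.16 (limma adjusted p = 0.0410), and -1.02 ± 0.23 on MmugDNA.3490.1.S1_at (adjusted p = 0.0146). On the first probe set the call ended in 5 of 12 alternative settings, with adjusted p from 0.0501 to 0.162, and without R.18 (-0.64, 0.129) or R.17 (-0.43, 0.215). The groups lie in different batches and were sampled on days 26 to 105 in Bela.Siro.F and days 12 to 24 in Siro.F. No other Bela.Siro group was tested against Siro.F, and the Bela.Siro.D30 arrays, given below, lay inside the range of the Siro.F arrays.

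KY1005.Siro.D28 also had higher IL1RL1, at 6.06, 5.96, 5.64, 6.09 and 6.27, of which 3 of 5 lay above the healthy highest. The difference was 0.44 ± 0.13 (limma adjusted p = 0.0140). It was 0.40 without the high-actin arrays (adjusted p = 0.115) and 0.37 without R.221 (0.0793). On MmugDNA.32633.1.S1_at the same group was higher than healthy controls (0.39 ± 0.12, adjusted p = 0.0258) and than Auto.D36 (0.71 ± 0.18, adjusted p = 0.0080). Without the high-actin arrays these were 0.39 (adjusted p = 0.111) and 0.72 (0.0232). Bela.Siro.D30 read 6.00 and 6.12 on the first probe set and missed the threshold (0.58 ± 0.16, adjusted p = 0.0536).

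Markers of other cells that carry IL1RL1 were set beside it. Of 7 measured regulatory T cell genes 6 passed the filter. Of these, 4 were higher in Siro.F, 4 in NoRx.F and 2 in KY1005.Siro.D28, beside 8.91%, 27.5% and 12.1% of all probe sets called. Over all groups 27.8% of the list's tests were called, against 8.2% of all probe sets. Both calls in KY1005.Siro.D28, of IL2RA and CTLA4, ended without the high-actin arrays. FOXP3, their lineage transcription factor, passed in 0 of 15 comparisons (limma, 2 at an unadjusted p under 0.05), and IKZF2 was lower in Bela.Siro.D14 (-1.31 ± 0.39) and Bela.Siro.F (-1.28 ± 0.29). Of basophil, mast cell and eosinophil genes 3 could be tested, CCR3, GATA2 and HDC, and 0 passed in Siro.F. CCR3, the eotaxin receptor, was higher in NoRx.F, Auto.D14 and Auto.D36, and in Auto.D14 no longer passed without the high-actin arrays. The part of these cells was not tested. The genes most like IL1RL1 were ECE1 (r = 0.50), SEMA3F (r = 0.49) and OR51E2 (r = 0.46).

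**Figure D5:**
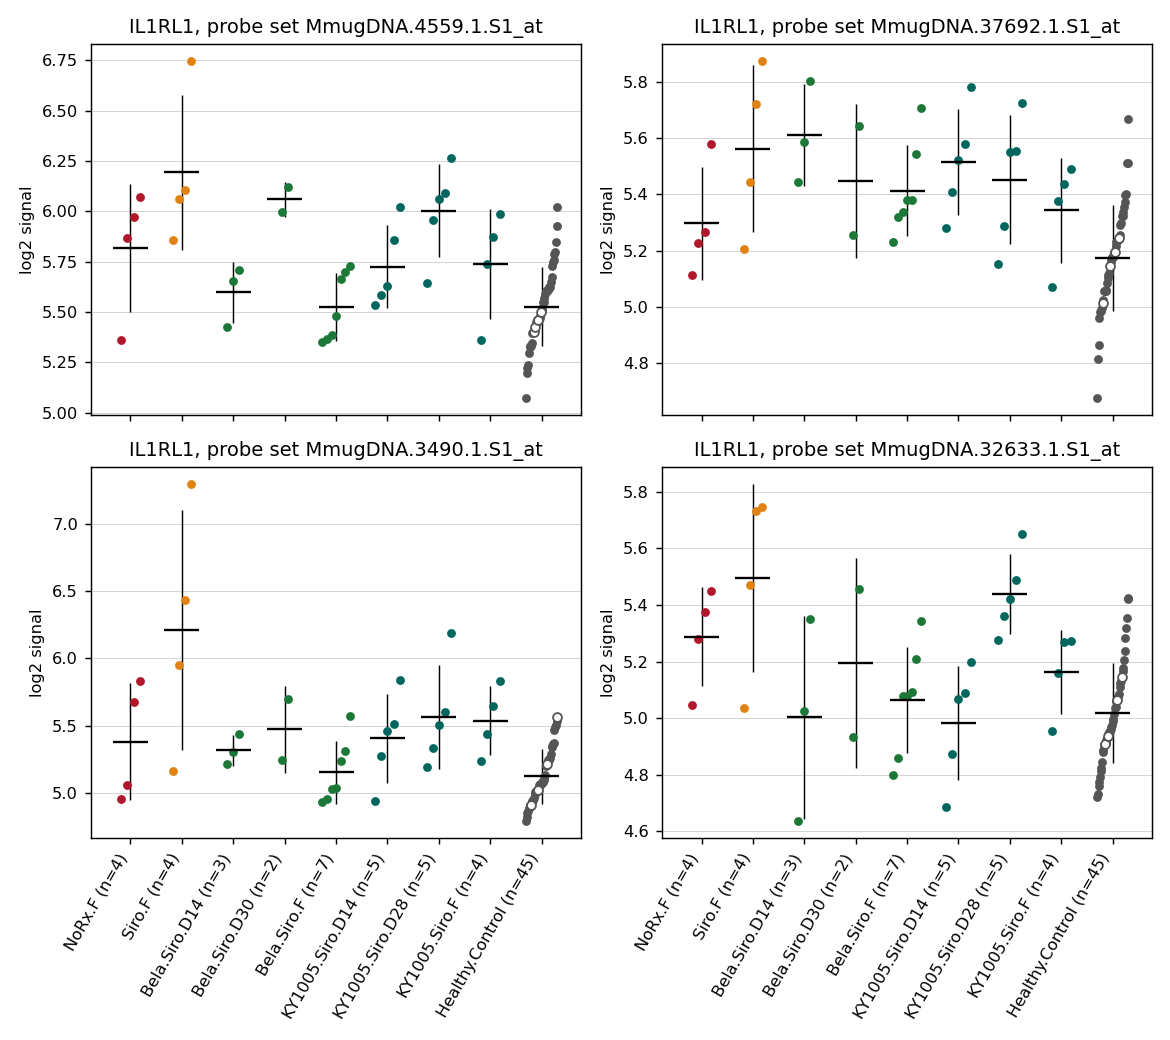
Log2 signal of the 4 IL1RL1 probe sets in each array of 9 groups, with the mean (bar) and SD (line), and open circles for arrays with a log2 actin ratio above 2.5. Siro.F is higher than healthy controls past the test on all 4 probe sets, with R.16 its lowest array each time. On the top left probe set and on MmugDNA.3490.1.S1_at R.16 lies inside the healthy range. The 7 Bela.Siro.F arrays lie below all 4 Siro.F arrays on the top left one.

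PTGDR2, the prostaglandin D2 receptor by which Th2 cells are often sorted, stayed within a narrow band of low signal. The healthy lowest, median and highest were 5.21, 5.68 and 6.29, and group means lay between 5.48 in Auto.D100 and 5.86 in Bela.Siro.D14. Differences ran from -0.26 ± 0.11 in Auto.D100 to 0.24 ± 0.11 in Bela.Siro.D14, and 0 of 15 passed the limma test (2 at an unadjusted p under 0.05). Its second probe set, MmugDNA.24803.1.S1_at (r = 0.23 with the first), was at or above the median of all values in only 12 of 101 arrays. On it Bela.Siro.F read 4.44 at the lowest, 4.59 at the median and 5.00 at the highest, against 4.57, 5.05 and 5.53 in healthy controls (-0.45 ± 0.11, limma adjusted p = 0.00227), and Tac.Mtx.F was also lower (-0.42 ± 0.14, 0.0348). At such signals the background of the array limits what a difference shows. The genes most like PTGDR2 were YJEFN3 and PAWR (r = 0.53 each) and NOXO1 (r = 0.51).

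Between time points of a regimen, 0 of 56 pairs passed the limma test on the probe sets of highest mean, with 2 at an unadjusted p under 0.05, beside 2.19% of all probe sets called. On the other probe sets 4 of 64 passed, those of IL4R and STAT6 in Auto.D36 and Auto.D100 against Auto.D14 given above. The difference of time courses between KY1005.Siro (KY1005.Siro.F minus D14) and autologous recipients (Auto.D100 minus D14) gave 0 of 7, with 0 at an unadjusted p under 0.05 and 0% of all probe sets called. For GFI1 it was -0.98 ± 0.76 (adjusted p = 0.692), the farthest from 0. Between regimens, 5 of 91 pairs passed, or 5.49% beside 6.49% of all probe sets, so the members were not called more often than other probe sets. They are the calls given above for GFI1, IL4R and IL1RL1. Of all probe sets, 7.98% were called in KY1005.Siro.D28 against Auto.D36, 7.18% in KY1005.Siro.F against Auto.D100, 14% in Bela.Siro.F against NoRx.F, 7.5% in NoRx.F against Auto.D14 and 0.747% in Bela.Siro.F against Siro.F.

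Among each other the members were weakly related over 101 arrays. IL4R and STAT6 had r = 0.45, GFI1 and STAT6 r = 0.35, GFI1 and IL1RL1 r = -0.47, IL4R and NFIL3 r = -0.43, and NFIL3 and IL1RL1 r = 0.39. GFI1 and NFIL3 had r = -0.37 over all arrays and 0.10 over the 45 healthy ones. These values share RNA quality, batch and cell composition within each array.

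Other genes of the Th2 pathway were counted in 5 lists with 40 tested genes. Of 600 tests, 66 were higher and 34 lower than in healthy controls. This was 16.7%, against 8.2% of all probe sets in the same comparisons. Without the high-actin arrays 14 of the 27 calls in KY1005 groups and 60 of the 63 in other groups passed. Of the 10 in Auto.D14, which then has 1 array, 0 passed the limma test and 6 had an unadjusted p under 0.05. Of the Th2 cytokines, IL4, IL5 and IL9 did not pass the filter on low values, and IL13, CSF2, IL10, IL21 and AREG were tested. IL13 and CSF2 had 0 calls in 15 comparisons. IL21, made by follicular helper T cells, was higher in Siro.F (0.84 ± 0.19). IL10 was higher in NoRx.F (1.08 ± 0.36) and lower in KY1005.Siro.F (-1.20 ± 0.38), where the growth factor AREG was higher (0.90 ± 0.29), and both KY1005.Siro.F calls ended without the high-actin arrays (-0.92 and 0.98). In this list 5.33% of the tests passed, against 8.2% of all probe sets. Healthy means of IL13 (4.85), IL21 (4.58) and AREG (3.63) lay below the median of all values. For these genes the background of the array limits what a difference, or its absence, shows.

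Among 6 tested Th2 receptors and effector genes 7 tests were higher and 8 lower (16.7%, against 8.2% of all probe sets). PTGDR, the other prostaglandin D2 receptor, was lower in all 3 Bela.Siro groups (-2.41 ± 0.34 in Bela.Siro.F), in Siro.F (-1.55 ± 0.41) and in NoRx.F (-1.20 ± 0.43). CCR4, a chemokine receptor of Th2 and regulatory T cells, was lower in NoRx.F (-0.99 ± 0.34) and Bela.Siro.F (-0.93 ± 0.27). IL2RA, the IL-2 receptor chain of activated and regulatory T cells, was higher in 4 groups, with 1.28 ± 0.21 in NoRx.F and 0.97 ± 0.20 in Siro.F, while the other calls, in KY1005.Siro.D14 and D28, ended without the high-actin arrays. IL13RA1, a receptor chain that myeloid cells carry, was higher in KY1005.Siro.F alone (2.16 ± 0.39), the group with 10 of 12 monocyte and granulocyte genes higher. Its healthy mean of 4.07 lay below the median of all values, which the filter used. Among genes this low, the filter favours those that are high in some group. The background of the array also limits what the other comparisons of IL13RA1 show.

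The 14 tested genes of IL-4 and GATA3 signalling were called higher in 15 tests and lower in 15 (14.3%, against 8.2% of all probe sets). BATF, an AP-1 factor needed for Th2 cytokine production in mice, was higher in 7 groups, most in NoRx.F (1.47 ± 0.21) and Auto.D14 (1.29 ± 0.27, or 0.97 and not past the test without the high-actin arrays). IRS2, an adaptor of the IL-4 receptor, was lower in NoRx.F (-2.17 ± 0.38), Siro.F (-1.88 ± 0.36) and the 3 autologous groups. TCF7, which with GATA3 starts Th2 differentiation and marks resting T cells, was lower in NoRx.F (-1.50 ± 0.18), Auto.D36 (-0.82 ± 0.18) and Auto.D100 (-0.64 ± 0.19).

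Genes that IL-4 induces had the largest share of calls among the 5 lists. In 105 tests 29 were higher and 6 lower (33.3%, against 8.2% of all probe sets). SOCS2, an inhibitor of cytokine signalling, was higher in the 7 groups other than NoRx.F in which NFIL3 was higher, with 3.81 ± 0.58 in KY1005.Siro.F (3.50 without the high-actin arrays), 3.47 ± 0.70 in Bela.Siro.D30 and 3.40 ± 0.54 in KY1005.Siro.D28 (3.09 without them). In KY1005.F its call ended without those arrays (2.40, limma adjusted p = 0.0510). PIM1, a kinase induced by STAT signalling, was higher in 9 groups, all given sirolimus or KY1005, with 1.53 ± 0.24 in KY1005.Siro.F (1.04 without the high-actin arrays) and 1.04 ± 0.18 in Bela.Siro.F, and its call in KY1005.D14 ended without those arrays (0.80, limma adjusted p = 0.230). CISH was lower in NoRx.F (-1.21 ± 0.39) and higher in Siro.F (1.22 ± 0.37), Bela.Siro.F (1.23 ± 0.31) and KY1005.Siro.F (1.29 ± 0.42). MYC was lower in NoRx.F (-1.41 ± 0.32) and in 2 autologous groups. Other cytokines also induce these genes.

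Of 8 tested genes listed as opponents of the Th2 programme, 12 tests were higher and 4 lower (13.3%, against 8.2% of all probe sets). SOCS3 held 5 of the 12 higher calls, with 2.01 ± 0.28 in KY1005.Siro.D28 and 1.55 ± 0.30 in Bela.Siro.D14. Whether SOCS3 opposes the Th2 programme in these cells was not tested. IFNG, the Th1 cytokine, was higher in Siro.F (1.56 ± 0.52) and Tac.Mtx.F (1.98 ± 0.59). The healthy mean of SOCS3, 4.67, lay below the median of all values, where the background of the array limits what a difference shows. RUNX3, which represses IL4 in Th1 and CD8 T cells, was lower in Bela.Siro.F (-0.89 ± 0.22), as was TBX21. MKI67, a marker of dividing cells, was higher in 6 groups, with 3.30 ± 0.37 in NoRx.F and 2.23 ± 0.46 in Auto.D14, and its calls in Auto.D14 and KY1005.F ended without the high-actin arrays. It was not called in the Bela.Siro and KY1005.Siro groups in which NFIL3 was higher. Values in these lists with an SE are log2 differences with limma adjusted p under 0.05.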

How the data were processed

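Log2 RMA signals of 102 arrays were used as deposited by the authors, who made them with RMA of the affy package per the submitters' processing notes (versions not given in the sources used here). Per the labels' protocols, labelling began with 70 to 85 ng RNA and used a kit that primes at the 3' end. Gene names come from the platform annotation, and its array build is not given in the sources used here, so no coordinates are printed. A test of batch among healthy arrays gave p under 0.05 in 0.274% of probe sets, against the 5% that chance gives. The labels do not say whether the deposited values had been adjusted for batch, and if they had, the p-values of fits with batch may be off.

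The repeat arrays of 1 healthy animal were averaged (101 arrays). A probe set was kept if 3 or more arrays reached 5.21, the overall median, which left 31710. Differences were fitted with limma 3.58.1 (R 4.3.3, the data.table package, version 1.17.8) over all 16 groups with batch (6) as a factor, 80 residual and 3.38 prior degrees of freedom, and adjusted over all 31710. The fit was tested on simulated data. Arrays of 1 animal in different groups had residuals with a median correlation of 0.18 over 51 pairs, 30 of them above 0.1, and an animal block was an alternative. Labels do not say whether arrays of a group are separate in all steps, so p-values measure the spread between arrays.

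The members, lists and tests were chosen with earlier results of these data known. Named genes were the 7 members with all their probe sets, up to 3 called genes of each list per comparison described, the 3 genes best correlated with each member, MKI67 and markers of other cells. The lists were Th2 cytokines, Th2 receptors and effector genes, IL-4 and GATA3 pathway, Th2 opponents, IL-4 induced genes, division (MKI67), and markers of T cells, regulatory T cells, basophils, mast cells and eosinophils, monocytes and granulocytes, B cells, NK cells, plasma cells, platelets and erythroid cells. Lists not described with a result had few calls against healthy controls, near or below the 8.2% of all probe sets. These were B cell 2 higher and 5 lower of 90, NK cell 0 and 3 of 75, and plasma cell 2 and 3 of 60. Platelet and erythroid had 3 and 3 of 105, and T cell 2 and 3 of 60. Alternatives changed the batch term, the samples and batches fitted, the filter, the prior, array weights, the normalization, the probe set of a gene, the animal block, covariates and the arrays left out.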

Additional observations from a re-analysis of the deposited data

Results flagged for a closer look

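In 56 groups of a member with 4 to 10 arrays, the highest or lowest array was checked for standing apart from the rest, and chance marks about 1 in 20 such groups. In 3 groups an array stood apart. GFI1 read 9.88 in the Auto.D100 array of R.200, against 9.14 to 9.17 in the other 3. GATA3 read 9.98 in the Bela.Siro.F array of R.49, against 10.44 to 10.70 in the other 6. PTGDR2 read 5.70 in the KY1005.Siro.F array of R.219, against 5.51 to 5.53 in the other 3. No explanation was tested.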

How the results depend on the processing

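The 22 calls of members were recomputed under the alternatives. Of 300 values, 264 kept their call, 35 kept only their direction, and 1 turned: IL4R in NoRx.F against Auto.D14 was 0.065 on the mean of all its probe sets. Among these values, fits of only the groups compared left some arrays out of the comparison where the groups share no batch. Without a batch term, with a trended robust prior, a further quantile normalization or only array A of the repeated healthy animal, all 22 passed, and without the 6 high-actin arrays 11 did not. That setting was extended to the other probe sets and the listed genes after seeing the data. The count against healthy controls was 17 and lay between 12 and 24 under the alternatives, except 9 without those arrays. Between regimens the count of 5 was 10 without a batch term, 8 with a stricter filter, 11 with array weights and 3 with the actin ratio as a covariate. Between time points the count of 0 was 1 with array weights (IL4R, Auto.D36 against Auto.D14) and 1 on the mean of all probe sets (STAT6, Auto.D100 against Auto.D14). The count of other Th2 pathway genes was 100, and 156 with array weights. Arrays of all groups but Healthy.Control and Bela.Siro.F were also left out 1 at a time. The counts then lay between 15 and 19 against healthy controls, between 4 and 7 between regimens and between 0 and 1 between time points. They lay between 91 and 105 for pathway genes, and the time course difference stayed at 0. Single healthy or Bela.Siro.F arrays were not left out in this way. With the animal as a block the counts were 17, 4, 0 and 102, and the call lost was IL1RL1 in Bela.Siro.F against Siro.F (-0.58, limma adjusted p = 0.0508). A fixed animal block within a regimen gave 0 calls between time points. The stricter filter removed IL1RL1, whose signals lie near the background of the array.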
